A study of Mus musculus with 9 samples.

Results

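The muscleblind (MBNL), RBFOX, NOVA and quaking (QKI) proteins are RNA-binding regulators of alternative splicing, and their mRNAs were followed here through an RNA immunoprecipitation-sequencing (RIP-seq) experiment on CELF2, another RNA-binding protein. The members were the 9 mouse genes *Mbnl1*, *Mbnl2*, *Mbnl3*, *Rbfox1*, *Rbfox2*, *Rbfox3*, *Nova1*, *Nova2* and *Qk*, chosen by name, with every RefSeq transcript row that the deposited count table holds for them. They made up 9 of 18635 protein-coding genes with a count and 121 of 107384 transcript rows. Of these rows, 33 were curated mRNAs (NM accessions), 79 were predicted mRNAs (XM) and 9 were predicted non-coding transcripts (XR), and 21 rows were at 0 in all libraries.

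All 9 libraries came from the cytoplasmic fraction of postnatal day 0 cortices of heterozygous *Celf2* knockin (KI) mice, whose edited allele codes for CELF2 p.R493H and was made with CRISPR/Cas9. There were 3 CELF2-KI RIP libraries precipitated with a rabbit anti-CELF2 antibody, 3 IgG RIP libraries precipitated with normal rabbit IgG, and 3 input libraries of the cytoplasmic RNA before precipitation, and the methods call them biological replicates. The mice carry 1 normal and 1 edited allele and no WT group was analysed here, so RNA held by the edited protein and by the normal protein cannot be told apart. CELF2-KI RIP against IgG RIP asks what the CELF2 antibody recovered beyond a nonspecific antibody, CELF2-KI RIP against input asks what it recovered beyond the abundance of the RNA, and IgG RIP against input gives the background of the precipitation itself.

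Splicing regulators of these families bind short motifs in pre-mRNA and raise or lower the inclusion of nearby exons, and several of them also bind 3′ UTRs in the cytoplasm. MBNL and CELF proteins are known to act in opposite directions on many of the same exons during development. Most of their own transcripts are heavily spliced, and all of these genes except *Nova2*, with 1 row, have several transcript rows here. In brain the NOVA proteins and RBFOX3 are largely neuronal whereas QKI is most abundant in glia and their progenitors.

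Counts assigned to protein-coding genes ranged from 13519265 to 16836385 in the CELF2-KI RIPs, from 9344325 to 14960841 in the IgG RIPs and from 55229679 to 78483586 in the inputs. The IgG RIPs were not alike: rows that could not be matched to a gene held 43.5% and 41.5% of the counts in IgG RIP 1 and 2 and 21.1% in IgG RIP 3, against 11.6% to 12.6% in the CELF2-KI RIPs and 9.27% to 9.78% in the inputs. Markers of cortical cells also moved between the groups. The summed level of 8 excitatory neuron markers was 1682 to 2291 CPM (counts scaled to a common library size) in CELF2-KI RIP, 913 to 1062 in IgG RIP and 994 to 1165 in input, whereas 7 radial glia markers summed to 167 to 258, 458 to 503 and 579 to 623 CPM and 5 erythroid markers to 92.7 to 95.0, 366 to 584 and 877 to 1135 CPM. Of the excitatory markers 3 of 8 were called higher than each control and 1 was called lower than in input. Of the radial glia markers 3 of 7 and of the erythroid markers 4 of 5 were lower than in both controls, and none of the tested markers was at 0 in a whole group. The 7 inhibitory neuron markers summed to 599 to 736 CPM in CELF2-KI RIP, 346 to 399 in IgG RIP and 485 to 497 in input. Of them 1 was called higher than each control and 1 lower than in input. For 5 astrocyte markers the sums were 787 to 1131, 516 to 578 and 943 to 1080 CPM, and for 5 tested microglia markers 90.0 to 124, 57.6 to 79.8 and 131 to 166 CPM, with 2 of the 5 lower than in both. The microglia sum rested mostly on *Cx3cr1*, with means of 91.8, 34.4 and 60.0 CPM in the same order. Its log2 fold change over IgG RIP was 1.42, whereas the other tested microglia markers had negative values there. Sums for 5 oligodendrocyte precursor markers (548 to 655, 546 to 573 and 489 to 557 CPM) and 6 endothelial markers (177 to 257, 162 to 364 and 213 to 336 CPM) overlapped between CELF2-KI RIP and at least 1 control. Of the endothelial markers 1 of 6 was lower than in both controls, and of the oligodendrocyte precursor markers 2 of 5 were called lower than in input. The part of these marker shifts in the values of the splicing regulators was not tested. Input was an aliquot of the cytoplasmic fraction taken before precipitation, so the sums compare RNA in the libraries and do not count cells.

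*Rbfox2* and *Nova1* rose in CELF2-KI RIP over IgG RIP as well as over input, by 2.48-fold to 2.68-fold, and *Nova2* was higher than in IgG RIP, by 2.02-fold. *Rbfox1* stood apart from the other members: it was 17.1-fold higher in IgG RIP than in input and 3.08-fold lower in CELF2-KI RIP than in IgG RIP, and CELF2-KI RIP exceeded input 5.55-fold. *Mbnl1*, *Mbnl2*, *Mbnl3*, *Rbfox3* and *Qk* were called in no comparison. Calls required a fold change of 2 or more together with an FDR below 0.01 (edgeR's quasi-likelihood test over 15263 protein-coding genes, Benjamini-Hochberg adjustment). Against IgG RIP, 3 of the 9 members were called higher and 1 lower, where 13.4% and 13.5% of all tested genes were. Against input, 3 of 9 were called higher and 0 lower, where 14.6% and 15.5% of all genes were. IgG RIP against input called 1 of 9 higher, where 6.79% of genes were called higher, and 0 lower, where 5.01% were. An unadjusted p under 0.05 in the edgeR test was reached by 5 members over IgG RIP, 6 over input and 2 in IgG RIP against input. The share of all tested genes at that p is not given here, so these counts cannot be set against it. A call of higher over IgG RIP and over input held for 2 of 9 members and for 7.58% of all tested genes.

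**Figure D1:**
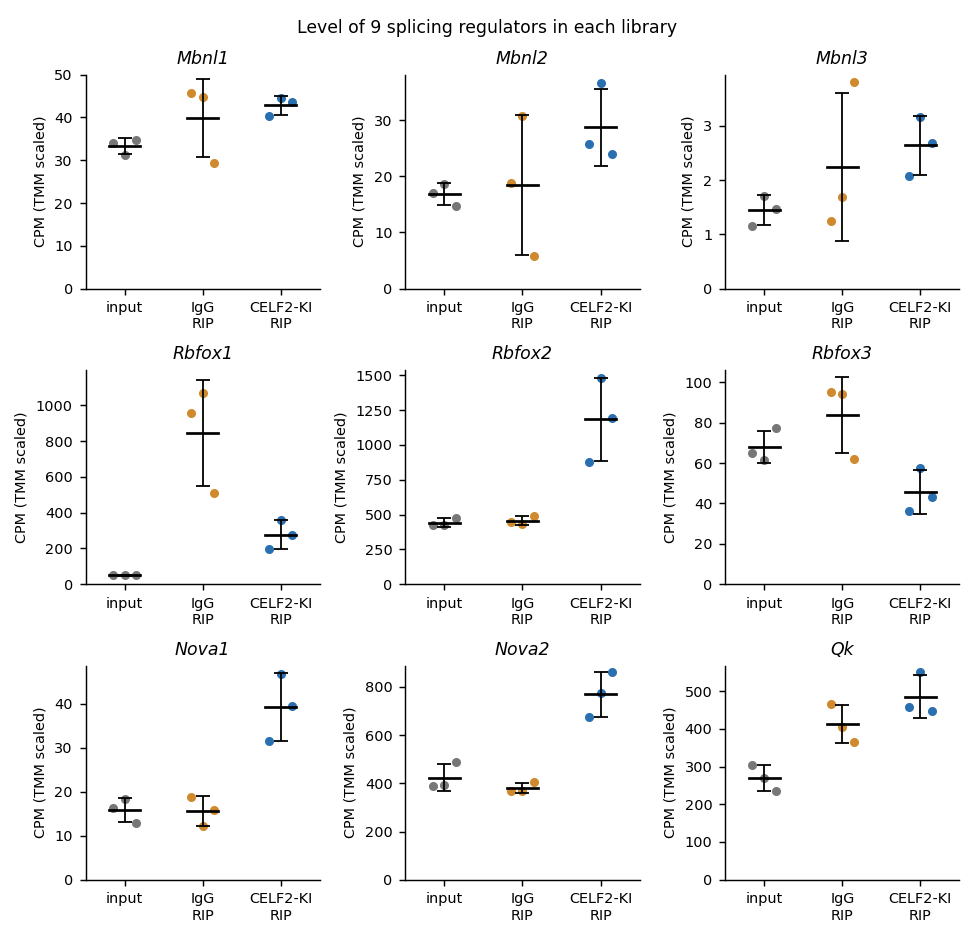
Level of each of the 9 genes in CPM (on library sizes scaled by the trimmed mean of M values) in the 3 input, 3 IgG RIP and 3 CELF2-KI RIP libraries; points are libraries, thick lines the mean and bars the SD (n = 3). The CELF2-KI RIPs lie above all 6 controls for *Rbfox2*, *Nova1* and *Nova2* (25.2% of all tested genes do) and below all 6 for *Rbfox3* (19.9% do), and *Rbfox1* is highest in the IgG RIPs, at 512 to 1071 CPM.

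**Figure D2:**
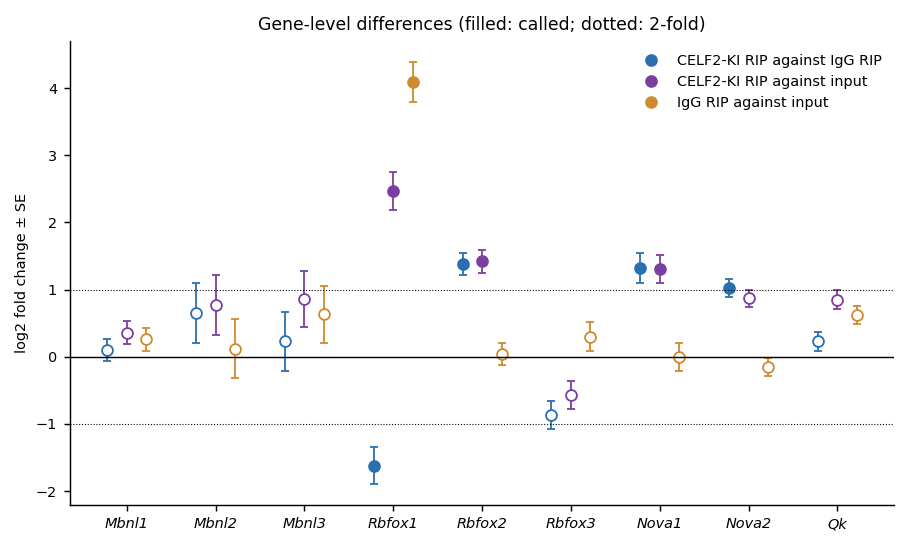
Log2 fold change ± SE (y axis) of each gene in the 3 comparisons; filled points passed an FDR under 0.01 and the 2-fold limit marked by the dotted lines. *Rbfox1* reaches 4.09 in IgG RIP against input, and *Rbfox2* lies at 1.38 and 1.42 in the comparisons of CELF2-KI RIP.

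The RBFOX family binds a common motif through 1 RNA recognition domain and regulates neuronal and muscle exons. *Rbfox2* (chr15:77078990-77308434, GRCm38.p6) is the most widely expressed of its family. Its level was 426, 423 and 478 CPM in inputs 1 to 3, 448, 430 and 490 CPM in IgG RIPs 1 to 3, and 879, 1479 and 1195 CPM in CELF2-KI RIPs 1 to 3. Every CELF2-KI RIP library was above every control library, and IgG RIP and input overlapped. *Rbfox2* was 2.60-fold higher in CELF2-KI RIP than in IgG RIP (log2 fold change 1.38, SE 0.17, FDR 8.6e-05) and 2.68-fold higher than in input (1.42, SE 0.17, FDR 6e-05), and its log2 fold change was 0.04 (SE 0.17, FDR 0.853) in IgG RIP against input. The 3 CELF2-KI RIPs also lay above all 6 controls in 25.2% of all tested genes. Both calls held in each of the 9 fits that left out 1 library, where the log2 fold change ranged from 1.18 to 1.55 over IgG RIP. They were lost with total counts as the only scaling (0.99 and 0.94), which lowered the median of all genes by 0.37 and 0.46 in the 2 comparisons.

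*Rbfox3* (chr11:118489760-118911597) encodes NeuN, the standard marker of mature neurons. It gave 65.1, 61.8 and 77.2 CPM in the inputs, 95.2, 94.3 and 61.9 CPM in the IgG RIPs and 36.3, 57.6 and 43.4 CPM in the CELF2-KI RIPs. All 3 CELF2-KI RIPs were below all 6 controls, as in 19.9% of tested genes, while IgG RIP and input overlapped. The change against IgG RIP passed the FDR but not the 2-fold limit (log2 fold change -0.87, SE 0.21, FDR 0.00518), and against input neither was reached (-0.57, SE 0.21, FDR 0.0353). Without CELF2-KI RIP 2 or without IgG RIP 3 the first difference passed both limits, at -1.07 and -1.05. It also passed with total counts (-1.26), upper quartile scaling (-1.14), scaling over coding and noncoding genes (-1.09) and curated rows alone (-1.30, FDR 0.00393). Against input *Rbfox3* passed both limits with total counts (-1.05, FDR 0.00108) and with curated rows alone (-1.97, FDR 0.000484), so that under these 2 alternatives it was called lower than both controls.

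*Rbfox1* (chr16:5884793-7412480), a neuronal splicing regulator spread over 1527688 bases, gave 48.6, 51.1 and 48.9 CPM in the inputs. It reached 957, 1071 and 512 CPM in the IgG RIPs and 195, 357 and 273 CPM in the CELF2-KI RIPs. The 3 groups did not overlap, with IgG RIP highest and input lowest. The log2 fold change was 4.09 (SE 0.30, FDR 4.9e-05) in IgG RIP against input, which ranked 13 from the highest of 15263 tested genes. In CELF2-KI RIP against input it was 2.47 (SE 0.28, FDR 4.7e-05) and in CELF2-KI RIP against IgG RIP -1.62 (SE 0.27, FDR 0.000619). The 3 IgG RIPs lay above the 3 inputs in 27.1% of all genes and the 3 CELF2-KI RIPs below the 3 IgG RIPs in 27.4%.

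The rise of *Rbfox1* in both precipitations lay mostly in 2 of its 32 transcript rows. XM_006522186.3 had 123, 74 and 48 estimated counts in the inputs, 11452, 8285 and 5232 in the IgG RIPs and 1461, 2761 and 1797 in the CELF2-KI RIPs. It took 4.02%, 1.60% and 1.57% of the gene's counts in the inputs, 74.9%, 76.7% and 73.2% in the IgG RIPs and 60.0%, 59.6% and 58.8% in the CELF2-KI RIPs, so its share was nearly constant within each group. A second row, XM_017317004.1, had 34, 87 and 1062 counts in the inputs, 2731, 2048 and 1336 in the IgG RIPs and 253, 1348 and 513 in the CELF2-KI RIPs, and the inputs disagreed among themselves. Summed, both rows held 91.9% to 95.6% of the gene's counts in the IgG RIPs, 70.4% to 88.7% in the CELF2-KI RIPs and 5.12%, 3.47% and 36.7% in inputs 1 to 3. Counting only the other rows, the level was 46.1, 49.3 and 31.0 CPM in the inputs, 68.8, 46.8 and 41.3 CPM in the IgG RIPs and 57.6, 40.2 and 66.7 CPM in the CELF2-KI RIPs. All 3 groups then overlapped, and *Rbfox1* was called in no comparison, with a log2 fold change of 0.08 (SE 0.26, FDR 0.817) over IgG RIP, 0.38 (SE 0.25, FDR 0.22) over input and 0.30 (SE 0.25, FDR 0.37) for IgG RIP over input. This split was chosen after the rows had been seen and left out the rows with most of the counts in the precipitations. A smaller change in the remaining rows was therefore largely set by that choice. The share of counts in rows without a gene, given above, was also highest in IgG RIP 1 and 2, and its part in the level of these 2 rows was not tested.

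Row by row, XM_006522186.3 was called higher than in input in both precipitations (edgeR, 50417 rows tested), with log2 fold changes of 6.50 (FDR 0.000433) for CELF2-KI RIP and 8.36 (FDR 0.00117) for IgG RIP. The second call was lost without input 1 (FDR 0.0104) and with the replicate number as a block (FDR 0.0112). XM_006522186.3 also departed from its gene, by 4.63 (FDR 2.64e-06) and 4.98 (FDR 4.19e-07) on the log2 scale. XM_017317004.1 was called over input neither in CELF2-KI RIP (2.56, FDR 0.268) nor in IgG RIP (3.95, FDR 0.0863). Its departure from the gene was called by limma's diffSplice (3.4, FDR 0.00656, and 4.38, FDR 0.000119) and not by the edgeR test. The other *Rbfox1* rows did not move together. The curated row NM_021477.5 had 384, 608 and 391 counts in the inputs, 533, 175 and 266 in the IgG RIPs and 83, 187 and 175 in the CELF2-KI RIPs. The second of the 2 curated rows of *Rbfox1* was at 0 in all libraries, so the sum of curated rows, 5.18% of its counts, was NM_021477.5 alone. On that sum the gene was called higher in IgG RIP than in input (log2 fold change 2.0, FDR 0.0084), and both calls of CELF2-KI RIP were lost, at 0.91 over input (FDR 0.08) and -1.09 against IgG RIP (FDR 0.0452). In the row fit NM_021477.5 was not called in IgG RIP against input (1.17, FDR 0.0777), nor on the library sizes of the gene fit (1.87, FDR 0.0247). By contrast, XM_011245917.2 took 13.8% to 18.6% of the gene's counts in the inputs, at most 0.0949% in the IgG RIPs and at most 0.702% in the CELF2-KI RIPs, and XM_006522190.1 had 126, 138 and 194 counts in the inputs, 0 in all 3 IgG RIPs and 24, 25 and 17 in the CELF2-KI RIPs. Against a floor of 3 counts per library, XM_006522190.1 was at least 8.17-fold higher in CELF2-KI RIP than in IgG RIP and at least 15.4-fold lower in IgG RIP than in input, both called (FDR 0.00385 and 0.00388), with FDRs of up to 0.0153 and 0.0212 when 1 library was left out. With the replicate number as a block neither was called (FDR 0.0411 and 0.0354). Row XM_017317006.1, at 0 in the IgG RIPs and at 396, 393 and 3 counts in the inputs, departed from its gene in IgG RIP against input (FDR 0.00841, and 0.0497 by limma's diffSplice), and its own change was not called (FDR 0.186). The span of *Rbfox1* overlaps 5 other annotated genes, of which Gm36902, 1700123O21Rik and Gm36824 have rows in the table. Gm36824, the most counted of these, had 225, 413 and 214 counts in the inputs, 341, 222 and 160 in the IgG RIPs and 112, 272 and 163 in the CELF2-KI RIPs.

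**Figure D3:**
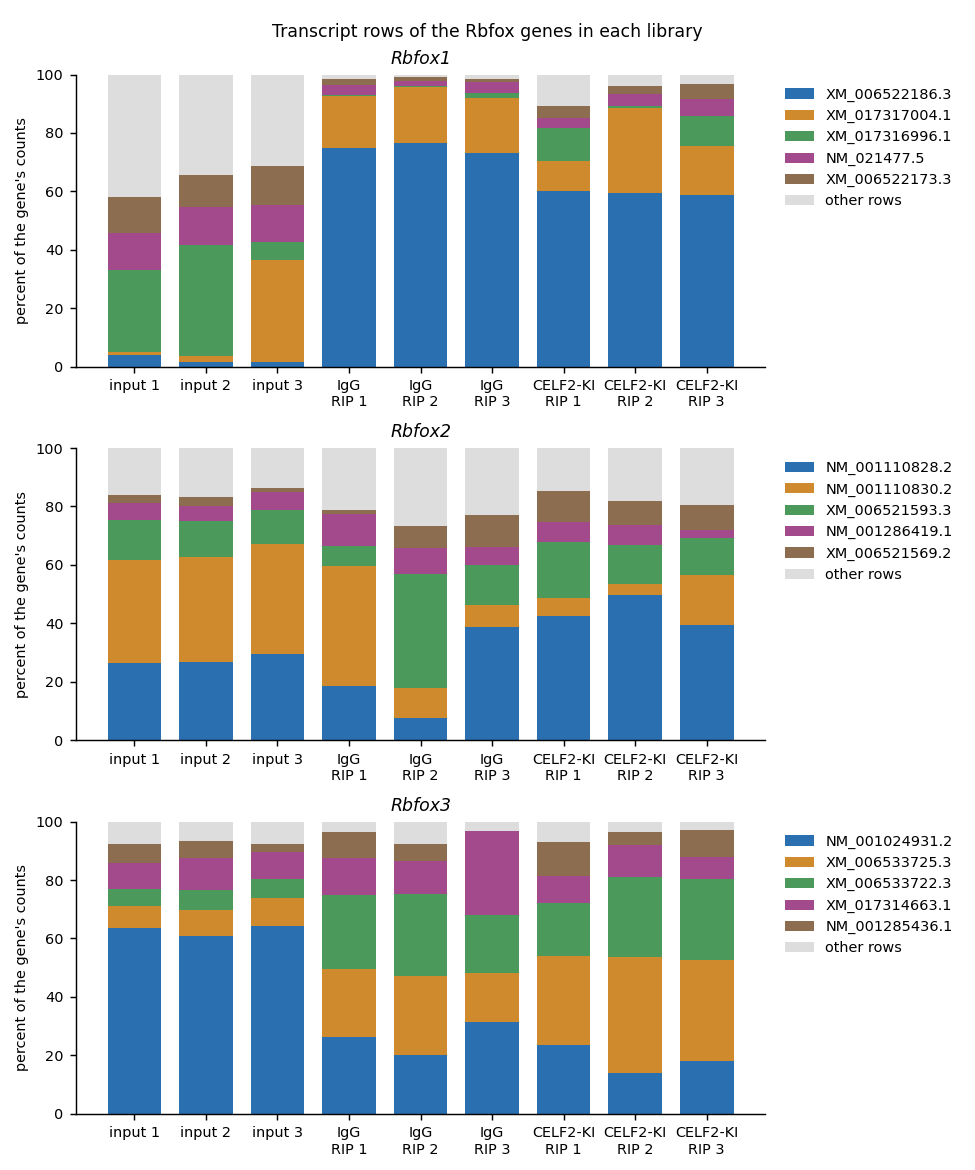
Share of each RBFOX gene's estimated counts (percent, y axis) taken by its 5 most counted transcript rows and by the other rows in each of the 9 libraries. XM_006522186.3 takes 58.8% to 76.7% of *Rbfox1* in the precipitations and 1.57% to 4.02% in the inputs, and NM_001024931.2 takes 60.9% to 64.4% of *Rbfox3* in the inputs and 13.8% to 31.4% in the precipitations.

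In *Rbfox3* the curated row that led in input held a smaller share of the gene in both precipitations. NM_001024931.2 had 2607, 3417 and 3075 counts in the inputs, 402, 191 and 271 in the IgG RIPs and 107, 103 and 88 in the CELF2-KI RIPs, which was 63.0% ± 1.83, 26.0% ± 5.65 and 18.4% ± 4.87 (SD, n = 3) of the gene. The predicted rows XM_006533725.3 and XM_006533722.3 took 8.72% ± 1.03 and 6.32% ± 0.434 of the gene in input, 22.3% ± 5.05 and 24.5% ± 4.28 in IgG RIP and 35.0% ± 4.54 and 24.5% ± 5.54 in CELF2-KI RIP (SD, n = 3). Neither the share of the curated row nor those of the predicted rows overlapped between input and either precipitation. How often the shares of all tested rows separate in this way was not counted. NM_001024931.2 was called lower in all 3 comparisons, at -2.98 (FDR 0.000302) in CELF2-KI RIP against input, -1.71 (FDR 0.00279) in IgG RIP against input and -1.27 (FDR 0.00565) in CELF2-KI RIP against IgG RIP on the log2 scale. Only the first of these held in each fit that left out 1 library; the second had FDRs of up to 0.0193 and the third of up to 0.0233, and on the library sizes of the gene fit the second was -1.02 (FDR 0.017). Its departure from the gene was not called by the edgeR test (FDR 0.3 and 0.544 against input) and was called by limma's diffSplice in both precipitations (-3.19, FDR 0.000205, and -2.30, FDR 5.07e-05).

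Rows of *Rbfox2* also differed in share, though the IgG RIPs varied among themselves. NM_001110828.2 took 27.5% ± 1.65 of the gene in input, 21.7% ± 15.8 in IgG RIP and 43.8% ± 5.38 in CELF2-KI RIP, and NM_001110830.2 took 36.3% ± 1.27, 19.6% ± 18.6 and 9.01% ± 7.26 (SD, n = 3). Within the IgG RIPs the share of the first row ran from 7.71% to 38.8% and that of the second from 7.54% to 41.0%. In CELF2-KI RIP against input, limma's diffSplice called the departure of NM_001110830.2 from its gene (-3.03, FDR 4.31e-06) and the edgeR test did not (FDR 0.185). Against IgG RIP neither called it (FDR 0.17 by diffSplice and 0.764 by edgeR). XM_006521592.2 had 1548, 1686 and 2042 counts in the inputs, 495, 335 and 88 in the IgG RIPs and 0, 0 and 2 in the CELF2-KI RIPs, although the gene as a whole was higher there. Against a floor of 3 counts per library it was at least 86.2-fold lower in CELF2-KI RIP than in IgG RIP and at least 154-fold lower than in input (FDR 0.00345 and 0.00325), and it departed from its gene in both (FDR 0.000568 and 0.000545; 0.111 and 0.0607 by diffSplice). With the replicate number as a block the row was called neither against IgG RIP (FDR 0.026) nor against input (FDR 0.0252), and leaving out 1 library gave FDRs of up to 0.0156. The predicted non-coding row XR_001781584.1 went the other way, with 173, 328 and 222 counts in the inputs, 66, 119 and 0 in the IgG RIPs and 778, 1371 and 783 in the CELF2-KI RIPs, or 0.752% ± 0.104, 1.22% ± 1.40 and 6.69% ± 0.728 (SD, n = 3) of the gene. Its change over input was not called (FDR 0.105), and diffSplice called its departure from the gene (3.06, FDR 0.00883). When only curated rows were summed, which hold 68.4% of the counts of *Rbfox2*, the gene was higher by 1.42 over IgG RIP and 1.22 over input (log2) and missed the threshold in both (FDR 0.0125 and 0.0228).

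Ratios between paralogs within a library do not depend on how libraries are scaled. The log2 ratio of *Rbfox2* to *Rbfox3* counts was 2.71, 2.77 and 2.63 in the inputs, 2.23, 2.19 and 2.98 in the IgG RIPs and 4.60, 4.68 and 4.78 in the CELF2-KI RIPs. All CELF2-KI RIPs were above all controls, and *Rbfox2* gained 4.65-fold on *Rbfox3* over IgG RIP and 3.95-fold over input. This separation adds no separate result: *Rbfox2* itself lay above and *Rbfox3* below all 6 controls, as 25.2% and 19.9% of all tested genes did. How often ratios of 2 genes separate in this way among all tested genes was not counted. The log2 ratio of *Rbfox1* to *Rbfox2* was -3.13, -3.05 and -3.29 in the inputs, 1.10, 1.32 and 0.06 in the IgG RIPs and -2.17, -2.05 and -2.13 in the CELF2-KI RIPs. The 3 groups did not overlap, and the CELF2-KI RIPs were the tightest, with an SD of 0.06. The log2 ratio of *Rbfox1* to *Rbfox3* was -0.45 ± 0.19 in input, 3.29 ± 0.23 in IgG RIP and 2.57 ± 0.13 in CELF2-KI RIP (SD, n = 3). For all 3 ratios the exact two-sided permutation test of CELF2-KI RIP against either control gave p = 0.1, the smallest value that 3 against 3 libraries allow, and 0.233 after adjustment over 7 pairs. With curated rows alone the direction turned for *Rbfox1* to *Rbfox2* over input (from 1.04 to -0.35) and for *Rbfox1* to *Rbfox3* over IgG RIP (from -0.73 to 0.13).

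**Figure D4:**
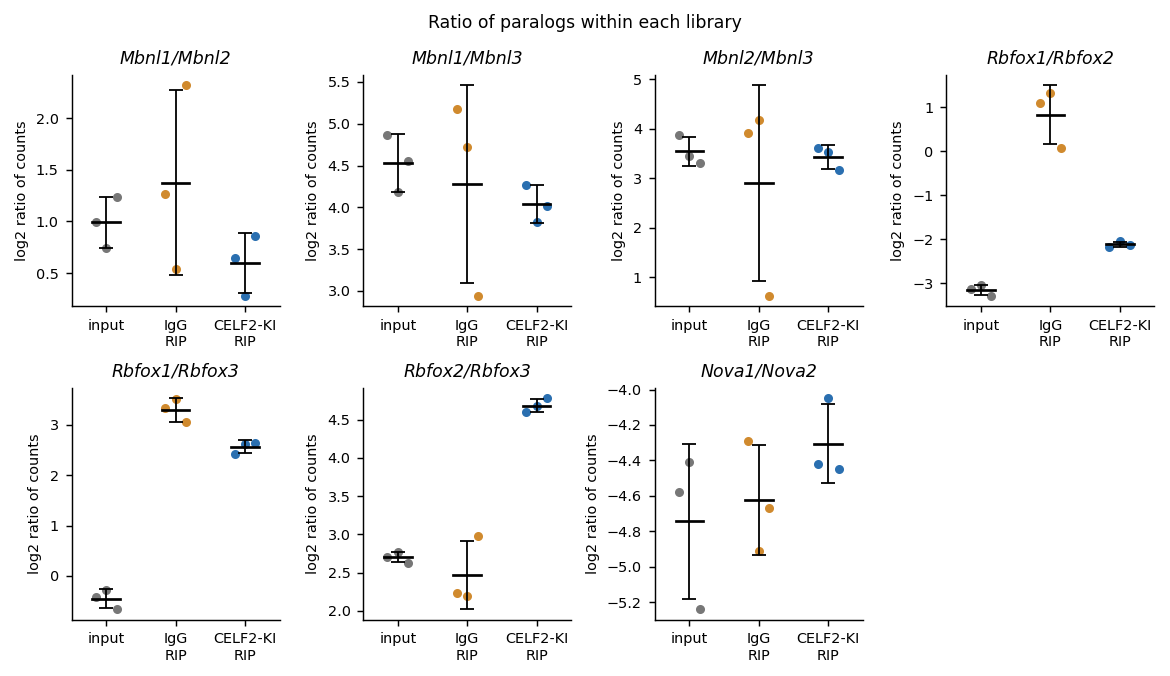
Log2 ratio of the summed estimated counts of 2 paralogs in each library (y axis) for the 7 pairs within the MBNL, RBFOX and NOVA families; points are libraries, thick lines the mean and bars the SD (n = 3). Among the 7 pairs, only those of RBFOX genes separate CELF2-KI RIP from both controls, with *Rbfox2* to *Rbfox3* at 4.60 to 4.78 against 2.19 to 2.98. How often ratios of other gene pairs separate in this way was not counted.

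NOVA1 and NOVA2 are KH-domain splicing regulators of neurons, first known as antigens of a paraneoplastic neurological disorder. *Nova1* (chr12:46697895-46819480) gave 16.3, 18.3 and 12.9 CPM in the inputs, 18.9, 12.2 and 15.8 CPM in the IgG RIPs and 31.5, 46.8 and 39.6 CPM in the CELF2-KI RIPs. The CELF2-KI RIPs were above all 6 controls, as in 25.2% of all tested genes, and the controls overlapped. *Nova1* was 2.5-fold higher than in IgG RIP (log2 fold change 1.32, SE 0.22, FDR 0.000498) and 2.48-fold higher than in input (1.31, SE 0.21, FDR 0.000408), against -0.01 (SE 0.21, FDR 0.968) for IgG RIP over input. Both calls held in each fit that left out 1 library. Neither held with total counts (0.94 and 0.83) or with curated rows alone (0.97, FDR 0.0322, and 0.99, FDR 0.0286), and scaling over coding and noncoding genes ended that over input (0.91).

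*Nova1* has 6 rows in the table, of which 4 were tested. Its curated row NM_021361.1 had 498, 855 and 416 counts in the inputs, 119, 83 and 92 in the IgG RIPs and 154, 310 and 139 in the CELF2-KI RIPs, or 50.7% ± 2.06, 49.4% ± 15.5 and 40.5% ± 9.91 (SD, n = 3) of the gene. The predicted row XM_006516152.2 had 171, 162 and 181 counts in the inputs, 13, 0 and 0 in the IgG RIPs and 194, 170 and 195 in the CELF2-KI RIPs. Its share was 28.0% to 49.4% in the CELF2-KI RIPs, 9.73% to 22.7% in the inputs and at most 4.37% in the IgG RIPs, and none of the *Nova1* rows was called by edgeR, with 2 of them at an unadjusted p under 0.05 over IgG RIP and 0 over input. The share of all tested rows at that p is not given here.

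*Nova2* (chr7:18925888-18965319) has a single row, the curated NM_001029877.3, so its level depends on no split between isoforms. It gave 390, 391 and 487 CPM in the inputs, 370, 367 and 405 CPM in the IgG RIPs and 675, 773 and 862 CPM in the CELF2-KI RIPs. The CELF2-KI RIPs were again above all 6 controls, as in 25.2% of all tested genes. It was 2.02-fold higher than in IgG RIP (log2 fold change 1.02, SE 0.13, FDR 0.0001) and 1.82-fold higher than in input, which passed the FDR but not the 2-fold limit (0.87, SE 0.13, FDR 0.00023). The call over IgG RIP sat on the 2-fold limit. It was lost in the fits without CELF2-KI RIP 3 (0.93), IgG RIP 1 (0.99), IgG RIP 2 (just under 1.0) or input 2 (0.91), without a filter (0.93), with a filter of 2 CPM (0.98) and under all 4 other scalings (0.64 to 0.95), each with an FDR of at most 0.000946. The log2 ratio of *Nova1* to *Nova2* was -4.74 ± 0.44 in input, -4.63 ± 0.31 in IgG RIP and -4.30 ± 0.22 in CELF2-KI RIP (SD, n = 3), with overlapping libraries and exact two-sided permutation p = 0.3 against each control, 0.42 and 0.35 after adjustment.

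The muscleblind proteins are zinc finger splicing regulators that are sequestered by expanded repeats in myotonic dystrophy. *Mbnl1* (chr3:60472559-60629750) gave 34.1, 31.1 and 34.7 CPM in the inputs, 45.6, 44.7 and 29.3 CPM in the IgG RIPs and 40.3, 44.5 and 43.6 CPM in the CELF2-KI RIPs. The CELF2-KI RIPs were above the inputs, as in 42.1% of all tested genes, and overlapped with the IgG RIPs. The log2 fold change was 0.10 (SE 0.17, FDR 0.632) over IgG RIP and 0.36 (SE 0.17, FDR 0.0854) over input, and the first turned to -0.27 with total counts, -0.16 with upper quartile scaling and -0.11 with scaling over coding and noncoding genes.

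*Mbnl2* (chr14:120275652-120431698) is the paralog with the larger known role in brain. It gave 17.1, 18.7 and 14.7 CPM in the inputs, 18.8, 30.7 and 5.88 CPM in the IgG RIPs and 25.7, 36.6 and 24 CPM in the CELF2-KI RIPs. The CELF2-KI RIPs were above the inputs, as in 42.1% of all tested genes, and IgG RIP 3 was the lowest of all libraries. The log2 fold change was 0.65 (SE 0.44, FDR 0.242) over IgG RIP and 0.77 (SE 0.44, FDR 0.148) over input. *Mbnl3* (chrX:51113494-51205990), a paralog expressed early in development, was near the filter at 1.16 to 1.71 CPM in the inputs, 1.25 to 3.80 in the IgG RIPs and 2.08 to 3.16 in the CELF2-KI RIPs, on 17 to 155 counts per library. Its log2 fold changes were 0.23 (SE 0.44, FDR 0.68) and 0.86 (SE 0.42, FDR 0.101), and with its 2 curated rows alone they turned to -0.79 and -0.97.

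A pair of rows of *Mbnl1* carried most of its counts. NM_020007.4 had 1230, 1726 and 1408 counts in the inputs, 4, 171 and 0 in the IgG RIPs and 305, 300 and 253 in the CELF2-KI RIPs, and NM_001310514.1 had 587, 766 and 564, then 471, 170 and 286, then 170, 170 and 151 counts. Their shares of the gene were 61.4% ± 4.18 and 26.9% ± 0.544 in input and 54.8% ± 5.01 and 31.4% ± 2.27 in CELF2-KI RIP (SD, n = 3). In the IgG RIPs they were 0.493%, 38.0% and 0% for NM_020007.4 and 64.7%, 37.7% and 70.1% for NM_001310514.1, so that IgG RIP 2 lay between IgG RIPs 1 and 3 and the inputs. The departure of NM_020007.4 from its gene in IgG RIP against input was called by diffSplice (-6.82, FDR 0.00127) and not by the edgeR test (FDR 0.594). The 5 rows of *Mbnl2* shifted from library to library: NM_175341.4 took 35.1%, 44.6% and 33.9% of the gene in the inputs, 0%, 9.44% and 0% in the IgG RIPs and 19.4%, 26.2% and 7.26% in the CELF2-KI RIPs, and none of the rows of *Mbnl2* or *Mbnl3* was called. The 3 MBNL ratios overlapped between groups in every comparison, with exact two-sided permutation p from 0.2 to 1.0.

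QKI is a STAR-family RNA-binding protein known for its part in myelination and in circular RNA formation, and its mouse gene is named *Qk* (chr17:10206471-10319361). *Qk* gave 303, 270 and 234 CPM in the inputs, 467, 406 and 365 CPM in the IgG RIPs and 458, 552 and 447 CPM in the CELF2-KI RIPs. Both precipitations were above the inputs in every library and overlapped with each other. Of all tested genes, 42.1% had the 3 CELF2-KI RIPs and 27.1% the 3 IgG RIPs above the 3 inputs. The log2 fold change was 0.85 (SE 0.14, FDR 0.000442) for CELF2-KI RIP and 0.62 (SE 0.14, FDR 0.00639) for IgG RIP over input, both past the FDR and under the 2-fold limit, and 0.23 (SE 0.14, FDR 0.178) between the precipitations. The last turned to -0.14 with total counts and -0.03 with upper quartile scaling.

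All 8 *Qk* rows were tested. NM_001159516.1 led with 7128, 9106 and 5090 counts in the inputs, 3406, 1961 and 2740 in the IgG RIPs and 3020, 3265 and 2355 in the CELF2-KI RIPs. Its share was 36.6% ± 1.23 in input, 49.1% ± 4.21 in IgG RIP and 48.5% ± 3.80 in CELF2-KI RIP (SD, n = 3), higher in every precipitation library than in every input. NM_021881.2 took 19.4% to 21.0% of the gene in the inputs, 17.1% to 18.5% in the IgG RIPs and 11.6% to 16.8% in the CELF2-KI RIPs, where it overlapped with neither control. XR_385168.2 had 2638, 3565 and 2300 counts in the inputs, 735, 366 and 377 in the IgG RIPs and 736, 910 and 897 in the CELF2-KI RIPs, and its share of 12.7% to 17.9% in the CELF2-KI RIPs did not overlap with the 7.40% to 9.86% in the IgG RIPs. The log2 fold change of this row, 1.05 between the precipitations, just missed the threshold (FDR 0.0104). Among all tested rows, how often shares separate like those of these *Qk* rows was not counted. XM_006523300.2 had 626, 384 and 1702 counts in the inputs, 1, 0 and 484 in the IgG RIPs and 0, 0 and 4 in the CELF2-KI RIPs. No *Qk* row was called by edgeR, with 2 at an unadjusted p under 0.05 in each comparison, and the share of all tested rows at that p is not given here. On the library sizes of the gene fit, a scaling chosen after the data had been seen, NM_001159516.1 was called higher than in input in CELF2-KI RIP (1.25, FDR 0.00147) and in IgG RIP (1.03, FDR 0.00579).

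Across the 9 genes, 55 of 121 rows passed the filter on low values and held 99.7% of the counts, and in these 11.7% of the values were 0. Of the 55 rows, 2 were called higher and 2 lower in CELF2-KI RIP than in IgG RIP, 1 higher and 2 lower than in input, and 1 higher and 2 lower in IgG RIP than in input. Of all 50417 tested rows, 6.27%, 4.50% and 5.64% were called in either direction. The edgeR test of rows against their gene called 1, 2 and 2 of the members' rows in these comparisons, where 0.762%, 0.581% and 0.814% of 32167 rows were called, and limma's diffSplice called 0, 5 and 6, where 1.02%, 2.45% and 4.93% were. Rows were scaled among themselves, which placed them lower against input than their genes: the single row of *Nova2* had a log2 fold change of 0.28 over input in the row fit and 0.87 in the gene fit.

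Of 72 other splicing regulators, listed from the HNRNP, SR, CELF, ELAVL, PTBP and related families, 71 were tested. Against IgG RIP 12 were called higher and 4 lower, and against input 7 higher and 4 lower. The median of their log2 fold changes stood at 0.23 over IgG RIP and at 0.28 over input, beside -0.06 and 0.19 for all tested genes and 0.23 and 0.86 for the 9 members. Higher than in both controls were 5 of 71, or 7.04%, where 7.58% of all tested genes were, and lower than in both were 2 of 71, where 9.52% were. The 4 with the largest change over IgG RIP were *Ptbp3*, a polypyrimidine tract-binding repressor of exons (1.59 over IgG RIP and 1.20 over input), *Celf2* itself (1.46 and 1.11), its paralog *Celf1* (1.27 and 1.22) and *Elavl1*, which stabilises AU-rich mRNAs (1.24 and 1.03). The fifth was *Rbms3* (1.05 and 1.13), named after its values were seen. *Pcbp4*, a poly(C)-binding protein (-1.06 and -1.35), and *Hnrnpa2b1*, a nuclear splicing and RNA transport factor (-1.04 and -1.40), were lower than in both. With the replicate block *Celf1* was called against neither control (FDR 0.0167 and 0.0181), and leaving out 1 library gave it FDRs of up to 0.0329 over IgG RIP and 0.0479 over input. The call of *Celf2* over input was lost without CELF2-KI RIP 2 (0.92), without input 2 (0.95), without a filter (0.99) and under all 4 other scalings (0.63 to 0.97). *Elavl1* and *Ptbp3* also lost theirs over input without CELF2-KI RIP 2 (0.95 and 0.98) and with total counts (0.56 and 0.72). The count of 5 fell to 0 without CELF2-KI RIP 2 and to 1 without input 2 and rose to 9 without CELF2-KI RIP 1, and it was 0 with total counts, upper quartile scaling and scaling over coding and noncoding genes. The mRNA of *Celf2*, whose protein the antibody recognises, gave 638 ± 164 CPM in CELF2-KI RIP, 233 ± 33.4 in IgG RIP and 296 ± 14.9 in input (SD, n = 3).

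The genes whose levels followed each member most closely were taken from those with a mean of at least 10 CPM, by Pearson correlation of log2 CPM over the 9 libraries, which share their depth and precipitation. *Rbfox2* was nearest to *Kif3c* and *Ss18l1* (r = 0.997 for both), *Nova1* to *Vax1* (0.989) and *Zfp563* (0.987), and *Nova2* to *Zfp444* (0.995) and *Foxj2* (0.990). On the log2 scale *Kif3c* was higher by 1.15 and *Ss18l1* by 1.56 over IgG RIP, and by 1.21 and 1.66 over input. *Rbfox1* was nearest to *Acad9* and *Vmn1r58* (0.996 for both), which were higher by 1.63 and 2.46 in IgG RIP than in input. *Qk* was nearest to *Fam210a* (0.990) and *Nbeal1* (0.987), *Rbfox3* to *Rbm17* (0.953) and *Pla2g6* (0.946), *Mbnl1* to *Ninl* (0.977) and *Lrch4* (0.975), *Mbnl2* to *Zfp939* (0.972) and *Ecpas* (0.949), and *Mbnl3* to *Gprasp2* (0.947) and *Chordc1* (0.909).

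**Figure D5:**
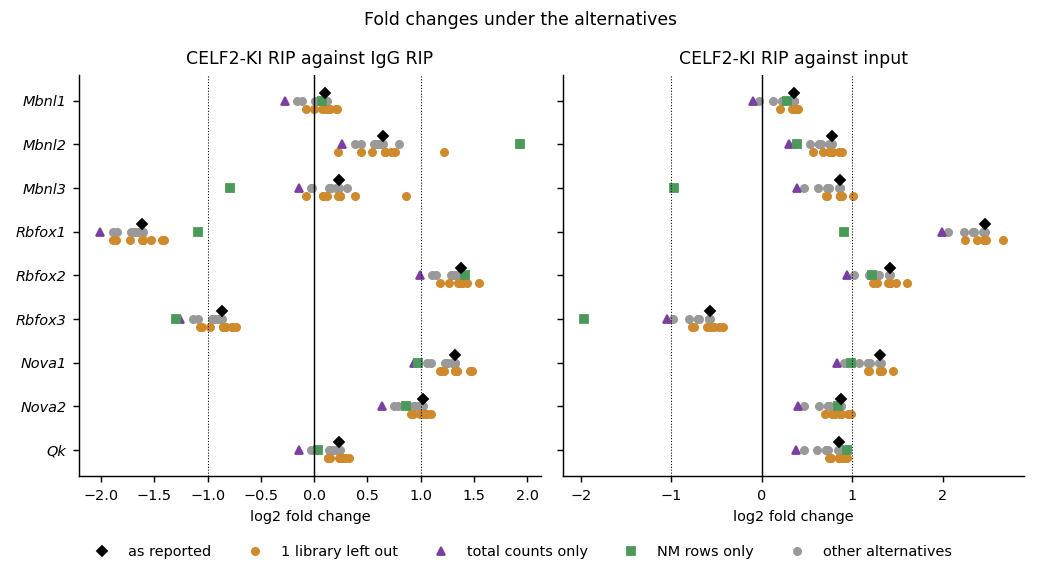
Log2 fold change of each gene (x axis) over IgG RIP and over input as reported, in the 9 fits that each left out 1 library, with total counts as the only scaling, with curated (NM) rows only, and under the other alternatives; dotted lines mark 2-fold. Among the points shown, *Rbfox2* and *Nova1* stay at or above 0.83 and *Rbfox1* at or below -1.09 over IgG RIP, whereas *Mbnl1*, *Mbnl3* and *Qk* lie on both sides of 0 over IgG RIP. The fit without the 2 leading *Rbfox1* rows is not drawn, and there *Rbfox1* was at 0.08 over IgG RIP (FDR 0.817, edgeR). Those rows were picked after the data had been seen, for their high counts in the precipitations.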

How the data were processed

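The authors depleted rRNA, made directional libraries, checked reads with FastQC 0.11.9, trimmed them with fastp 0.23.4, removed rRNA reads with Ribodetector 0.3.1 and quantified transcripts with kallisto 0.51.1. They deposited estimated counts per transcript row, unscaled for depth or length; the submitters' processing notes name mm10. The methods name an Ensembl transcriptome, whereas the rows carry RefSeq accessions, and the strand setting of the counting is not given in the sources used here. Since isoforms share reads, the counts of single rows are estimates that can shift between similar isoforms. Without scaling for length, levels of different genes were not read as relative amounts of RNA, and the paralog ratios were compared only between groups.

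Rows were matched to genes by accession without version in a RefSeq gene table (GRCm38.p6, the assembly of mm10): 86714 of 107384 rows matched, and 20670 rows (19.2%), with 9.27% to 43.5% of the counts, stayed out of the gene fit. Counts were rounded after summing per gene. Genes and rows that reached 0.5 CPM in 3 or more libraries entered edgeR 4.0.16 (quasi-likelihood test, TMM scaling, 1 mean per group, all 9 libraries) in R 4.3.3; rows were compared with their gene by diffSpliceDGE. That test compares a row with its gene's sum, which holds the row itself, and in simulated data it called few of the changed rows that limma's test found; limma 3.58.1 (diffSplice) and DESeq2 1.42.0 were alternatives. The comparison of rows with their gene in IgG RIP against input was added after the data had been seen. Paralog ratios were compared by exact permutation in Python 3.11.15 with scipy 1.17.1. The scripts were tested on simulated data.

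Same-numbered CELF2-KI RIP and input libraries deviated together (r = 0.185, 0.122 and 0.212 over 11532 genes, each over the limit of 0.1), so the labels' replicate number was used as a block in an alternative fit. Replicates differed by more than counting noise. The text names the 9 members, the 4 other regulators with the largest change over IgG RIP among those called higher than both controls, likewise up to 4 lower, and for each member the 2 genes nearest in pattern. Members and lists were chosen with earlier results of these data known. No transcript or protein sequence was used here.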

Additional observations from a re-analysis of the deposited data

How the results depend on the processing

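Alternatives covered scaling, filter, test, curated rows, the replicate block and each library left out. Scaling moved the median of all genes most with total counts, by -0.37 over IgG RIP and -0.46 over input; higher calls then made up 21.5% and 12.9% of all calls, against 49.8% and 48.5%, and 28.7% and 28.4% with upper quartile scaling, 32.4% and 17.3% with TMM over coding and noncoding genes, and 36.6% over input with DESeq2 size factors. Of the 9 members, 4 were called over IgG RIP, 2 with total counts (*Rbfox1* and, not among the 4, *Rbfox3*, both lower), 0 with glmTreat (a test against the 2-fold limit) and 1 with curated rows, which was *Rbfox3*, lower, so that none of the 4 calls held there. Over input 3 were called, 1 with glmTreat (*Rbfox1*) and 1 with curated rows, again *Rbfox3*, lower, with none of the 3 held. Higher than both controls were 2, falling to 0 with total counts, glmTreat and curated rows and to 1 with TMM over coding and noncoding genes. IgG RIP against input called 1, and 0 without the 2 leading *Rbfox1* rows, when the change of *Rbfox1* over IgG RIP turned to 0.08. Those 2 rows were picked after the data had been seen, for their high counts in the precipitations, so this loss was largely set by the choice. The cause was not tested except where stated.

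Every other gene-level direction that turned belonged to a difference called neither as reported nor under that alternative. Over IgG RIP *Mbnl1* turned to -0.27 (total counts), -0.16 (upper quartile) and -0.11 (TMM over coding and noncoding genes), *Mbnl3* to -0.14, -0.03 and -0.02 in the same order and -0.79 with curated rows, and *Qk* to -0.14 and -0.03 with the first 2. Over input *Mbnl1* turned to -0.10 (total counts) and -0.03 (TMM over coding and noncoding genes) and *Mbnl3* to -0.97 (curated rows). In IgG RIP against input *Mbnl2* turned to -0.06 (TMM over coding and noncoding genes, and also the replicate block) and -1.54 (curated rows), *Mbnl3* to -0.18 and *Rbfox3* to -0.67 (curated rows), *Rbfox2* to -0.03 (DESeq2 size factors and Wald test), -0.05 (total counts), -0.13 (TMM over coding and noncoding genes) and -0.20 (curated rows), and *Nova1* to 0.01 (upper quartile and curated rows). With 1 library left out, ranges crossed 0 for *Mbnl1* (-0.08 to 0.21) and *Mbnl3* (-0.08 to 0.86) over IgG RIP and for *Mbnl2* (-0.45 to 0.55), *Nova1* (-0.17 to 0.13) and *Rbfox2* (-0.01 to 0.09) in IgG RIP against input.

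Called rows numbered 4, 3 and 3 in the 3 comparisons and 10, 8 and 13 with DESeq2's Wald test. With the replicate block they were 1 over IgG RIP and 0 in IgG RIP against input, where the block left 0 of all 50417 tested rows called. With 1 library left out the called rows of the members ranged from 0 to 6, 2 to 5 and 0 to 4. Rows departing from their gene numbered 1, 2 and 2; limma's diffSplice gave 0, 5 and 6, the block gave 1 and a filter of 2 CPM gave 1 in the last comparison, and leaving out 1 library gave 0 to 2, 1 to 3 and 1 to 3. The replicate block changed no gene call of a member and ended both calls of *Celf1*.

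Other regulators higher than both controls numbered 5, or 1 (no filter, DESeq2 size factors), 2 (DESeq2 Wald test) and 0 (total counts, upper quartile, TMM over coding and noncoding genes, glmTreat), with 0 to 9 when 1 library was left out. Those lower than both numbered 2, or 5 with each of those 3 scalings, 0 with glmTreat and 1 to 4 with 1 library left out. With curated rows the ratio differences turned from 1.04 to -0.35 over input and became 2.24 in IgG RIP against input for *Rbfox1* to *Rbfox2*, 0.13 (turned from -0.73), 2.78 and 2.65 in the 3 comparisons for *Rbfox1* to *Rbfox3*, 2.72, 3.14 and 0.41 for *Rbfox2* to *Rbfox3* and 0.09 over input for *Nova1* to *Nova2*. Counting depth limits *Mbnl3* most, at 17 to 155 counts per library.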
